A study of Homo sapiens with 30 samples.

Results

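Collagens, integrins and laminins were taken by gene name, as every probe whose name was COL with a chain number, ITGA or ITGB with a subunit, or LAMA, LAMB or LAMC with a number. The names matched 84 of the 30484 gene names and 134 of the 41000 probes of the array. They were 40 collagen genes with 65 probes, 26 integrin subunit genes (18 alpha and 8 beta) with 43 probes, and 12 laminin genes with 20 probes. The other 6 names (ITGB1BP1, ITGB1BP2, ITGB1BP3, ITGB3BP, ITGB4BP and ITGBL1) belong to proteins that bind an integrin or have a related name, and they were counted in no family. The name rule itself used no measured value, though it was chosen with earlier results of these data known. A gene was read from the probe that was brightest in vehicle-treated cells, and 34 of the genes had more than 1 probe.

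The study compared BMP7-treated with vehicle-treated cells of 5 human breast cancer cell lines (HCC1954, MDA-MB-231, MDA-MB-361, T-47D and ZR-75-30) at 6 time points, the first at 30 min and the others at 1, 3, 6, 12 and 24 h. Each of the 30 two-colour Agilent arrays held vehicle RNA in the Cy3 channel and BMP7 RNA of the same line and time in the Cy5 channel, each pooled from 3 cultures. All cells were unmodified established lines seeded 1 day before treatment, and MDA-MB-231 and T-47D were grown with other serum concentrations than recommended, so medium and line cannot be told apart for them. No array was repeated and no dyes were swapped, so the 6 samples of a line differ in time point, p-values measure only the spread between these samples, and any dye bias that a probe shows on every array enters its BMP7 ratio.

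Collagens are secreted as triple helices and build fibrils (types I, III and V), the basement membrane network (type IV), beaded filaments (type VI), anchoring fibrils (type VII) or fibril-associated and transmembrane forms (types XII, XIII and XVII). Laminins are trimers of an alpha, a beta and a gamma chain that polymerize in the basement membrane, and integrins are alpha-beta pairs on the cell surface that bind both and connect them to the cytoskeleton. In the mammary gland, epithelial cells sit on laminin and type IV collagen, while most fibrillar collagen comes from stromal fibroblasts. BMP7 is a secreted ligand of the TGF-beta superfamily that acts through SMAD proteins, and BMPs were named for the bone matrix, rich in type I collagen, that they induce.

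These type IV collagen genes are shown because they lie in head-to-head pairs. By their brightest probes the members of each pair had the same highest cell line, but COL4A1 and COL4A2 diverged in ZR-75-30. COL4A1 and COL4A2 start 127 bases apart on opposite strands of chromosome 13, and COL4A5 and COL4A6 start 380 bases apart on opposite strands of chromosome X. The RefSeq promoter windows (GRCh38.p14, 300 bases that end just downstream of the start) are chr13:110307108-110307407 on the minus strand for COL4A1, chr13:110307034-110307333 on the plus strand for COL4A2, chrX:108439588-108439887 on the plus strand for COL4A5 and chrX:108439409-108439708 on the minus strand for COL4A6. They are given from 5′ to 3′, with capitals for the palindrome GGCGCC, a GC-rich motif of the kind SMAD proteins bind.
COL4A1: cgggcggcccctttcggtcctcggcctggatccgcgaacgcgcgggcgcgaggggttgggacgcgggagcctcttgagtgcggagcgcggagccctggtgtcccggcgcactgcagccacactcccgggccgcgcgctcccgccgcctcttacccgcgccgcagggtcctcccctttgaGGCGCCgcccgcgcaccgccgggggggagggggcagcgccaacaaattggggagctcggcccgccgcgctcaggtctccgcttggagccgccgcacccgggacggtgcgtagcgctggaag
COL4A2: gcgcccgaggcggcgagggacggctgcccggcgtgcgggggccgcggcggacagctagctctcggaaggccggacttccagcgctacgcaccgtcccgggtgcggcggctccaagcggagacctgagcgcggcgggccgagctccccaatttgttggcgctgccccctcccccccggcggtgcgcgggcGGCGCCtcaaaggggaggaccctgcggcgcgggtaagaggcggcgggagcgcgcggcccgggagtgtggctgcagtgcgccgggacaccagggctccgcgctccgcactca
COL4A5: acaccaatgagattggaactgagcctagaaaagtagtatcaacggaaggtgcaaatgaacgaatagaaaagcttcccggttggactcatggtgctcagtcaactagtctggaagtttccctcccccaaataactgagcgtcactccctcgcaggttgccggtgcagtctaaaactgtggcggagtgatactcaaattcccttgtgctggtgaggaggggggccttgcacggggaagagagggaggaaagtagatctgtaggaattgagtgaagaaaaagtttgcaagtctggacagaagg
COL4A6: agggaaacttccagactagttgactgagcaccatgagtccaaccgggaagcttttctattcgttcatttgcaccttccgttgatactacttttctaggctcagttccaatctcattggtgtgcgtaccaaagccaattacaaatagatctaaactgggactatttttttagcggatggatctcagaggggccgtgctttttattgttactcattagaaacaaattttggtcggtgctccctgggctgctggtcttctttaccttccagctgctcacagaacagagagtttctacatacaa

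The windows of COL4A1 and COL4A2 share 226 bases and therefore the same GGCGCC, which starts at position -71 from the COL4A1 start and -61 from the COL4A2 start. The windows of COL4A5 and COL4A6 share 121 bases and hold no GGCGCC on either strand. Of all 35116 RefSeq promoter windows of this length 19.2% held the motif. Of the 84 genes matched by name 59 had a window, and 18 of these (30.5%) held it in their first listed window. The first share is thus counted over windows and the second over genes, where the site shared by COL4A1 and COL4A2 counts for each. A match is a run of letters and not a measured binding site.

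The share of probes with both channels well above background was 53.8% to 68.3% per array, and the arrays lay on 13 slides, of which 1 held 2 lines, and were scanned in 2 batches with 6 arrays in the second. Every vehicle sample correlated best with the other samples of its own line (r of at least 0.949, against at most 0.909 with another line). ESR1 was not well above background in MDA-MB-231 and was high in MDA-MB-361, T-47D and ZR-75-30, ERBB2 was low in MDA-MB-231 and T-47D and high in the other lines, VIM was highest in MDA-MB-231 and next in HCC1954, and KRT5 was high in HCC1954 alone. The fibroblast gene DCN and the leukocyte gene PTPRC were not well above background on any vehicle sample. The ZR-75-30 array at 6 h stood apart, with 2217 probes changed 2-fold and well above background in both channels.

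In vehicle-treated cells the 3 families differed widely between the cell lines, with no BMP7 involved. Of the 40 collagens, 31 (77.5%) differed between the lines, as did 20 of the 26 integrins (76.9%) and 10 of the 12 laminins (83.3%). The limma F test over the 5 lines, with line means at least 2-fold apart, called 63.8% of all probes, and 95 of the 128 probes of the 3 families (74.2%). Among probes well above background on 6 or more vehicle samples it called 79.9%, and 80 of the 88 of the 3 families (90.9%). Members were read from the brightest probe of a gene, while all probes include dim ones, here and in the shares by line below. The median range of the line means was 2.9 on the log2 scale for collagens, 2.22 for integrins and 2.56 for laminins, and 1.44 for all probes. Since cultures were measured in bulk, fewer cells with a transcript and less of it per cell cannot be told apart.

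MDA-MB-231, a line with mesenchymal features, was the line in which most members were high. Called against the mean of the other 4 lines at 2-fold or more, 27 of the 78 members (34.6%) were higher there and 10 (12.8%) lower, where 13% and 13.1% of all probes were. HCC1954 had 20 higher (25.6%) and 12 lower (15.4%), against 10.4% and 10.2% of all probes. MDA-MB-361 had 15 higher (19.2%) and 19 lower (24.4%), against 13.5% and 12.8%. T-47D had 10 higher (12.8%) and 21 lower (26.9%), against 11.7% and 12.5%. ZR-75-30 had 8 higher (10.3%) and 23 lower (29.5%), against 9.56% and 9.41%. After normexp background correction, which shrinks differences of dim probes, 12 members were lower and 7 higher in MDA-MB-361, 13 were lower and 2 higher in ZR-75-30, 7 were lower in HCC1954, 5 were lower in MDA-MB-231 and 5 were higher in T-47D.

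**Figure D1:**
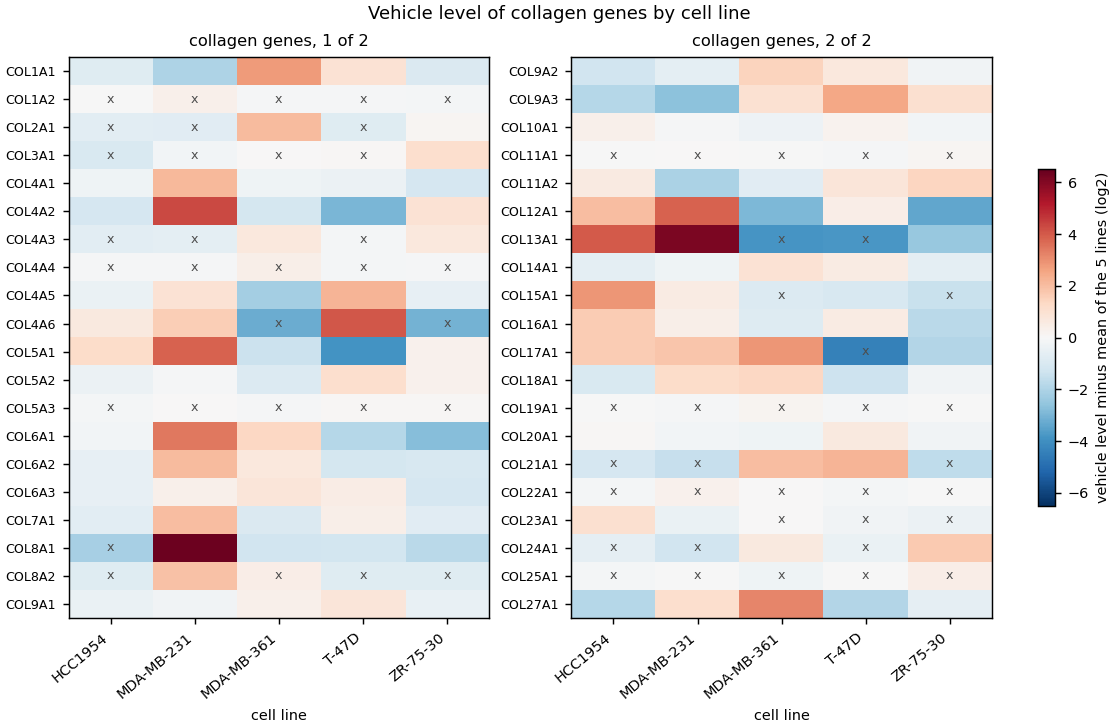
Heat map of vehicle levels of the collagen genes (rows) in the 5 cell lines (columns), each as the log2 level minus the mean of the 5 lines, with an x where no vehicle sample of the line was well above background. COL13A1, COL8A1, COL5A1, COL12A1, COL4A2 and COL6A1 stand out in MDA-MB-231, COL4A6 in T-47D, and COL1A1 and COL27A1 in MDA-MB-361.

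Collagens were higher in MDA-MB-231 for 15 of 40 genes and lower for 5, and in HCC1954 for 7 and 8. In MDA-MB-361 10 were higher and 11 lower, in T-47D 8 and 10, and in ZR-75-30 5 and 13. At least 1 line had 28 of the 40 well above background on all 6 vehicle samples, 12 were so in every line, and 7 were well above background on no array. Levels below are log2 Cy3 intensities after normalization between arrays, and they compare lines for a probe, not genes with each other.

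The fibrillar collagens did not follow a single line. COL1A1, the alpha-1 chain of type I collagen, had levels of 8.74 to 9.07 in MDA-MB-361 (median 8.89) and 6.84 to 7.75 in T-47D (median 7.05), and no sample of the other lines exceeded 5.79. The MDA-MB-361 samples lay apart from all others, 3.43 ± 0.14 (SE) above the mean of the other lines, or 10.8-fold (limma adjusted p = 2.51e-18). COL1A2, the partner chain of type I collagen, was not well above background on any vehicle sample of any line, and COL3A1 was so on 2 samples, both of ZR-75-30. COL5A1, a chain of type V collagen that regulates fibril assembly, had levels of 12.03 to 12.45 in MDA-MB-231 (median 12.27) and 8.88 to 9.89 in HCC1954 (median 9.73). Its levels in T-47D were 4.33 to 4.81 (median 4.46), with 2 of 6 samples well above background. MDA-MB-231 was 28.2-fold above the mean of the other lines (4.82 ± 0.11, adjusted p = 9.24e-25), and the second COL5A1 probe was also highest there. COL5A2, the other main type V chain, went another way, with T-47D highest (9.95 ± 0.45, SD) and MDA-MB-361 lowest (7.98 ± 0.18).

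The type IV collagens are 3 pairs of neighbouring genes. Of COL4A3 and COL4A4, the pair of kidney and ear membranes, COL4A3 was well above background on 4 of 30 vehicle samples and COL4A4 on 0. COL4A1 and COL4A2 shared their highest line. COL4A2 had levels of 12.17 to 13.48 in MDA-MB-231 (median 13.25), apart from all other lines and 40.9-fold above their mean (5.35 ± 0.19, adjusted p = 5.18e-20). COL4A1 was highest in the same line, at 9.42 to 10.99 (median 9.82), but 6.17-fold above the others (2.62 ± 0.22, adjusted p = 1.25e-11). In ZR-75-30 the pair diverged, since COL4A2 differed from the mean of the other lines by 1.17 ± 0.19 and COL4A1 by -1.38 ± 0.22 (adjusted p = 1.06e-05 and 4.28e-06). Both differences dropped under 2-fold after normexp background correction, at 0.77 and -0.99, with the direction kept. T-47D had the lowest COL4A2 (5.84 ± 0.66) and a COL4A1 of 7.43 ± 0.3 that was not called.

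COL4A5 and COL4A6, the pair on chromosome X, were both highest in T-47D. COL4A5 had levels of 11.21 to 11.98 there (median 11.51), 6.94-fold above the other lines (adjusted p = 1.81e-13), and was lowest in MDA-MB-361 (7.15 ± 0.47). COL4A6 had levels of 9.14 to 10.47 in T-47D (median 9.88) and 6.17 to 7.88 in MDA-MB-231 (median 7.57). In MDA-MB-361 and ZR-75-30 COL4A6 was not well above background on any sample, which put T-47D at least 42.7-fold and at least 39.2-fold higher. These bounds, here and below, set the dim line, array by array, to the lowest signal that was well above background, or to the probe's own signal if that was higher. That lowest signal was taken over all probes of the array. It is not a detection limit of the probe itself, so the bounds are approximate. Of the other COL4A5 probes, 1 was highest in MDA-MB-231 and 1, well above background on 3 of 30 samples, in T-47D, and the other COL4A6 probe was highest in HCC1954.

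**Figure D2:**
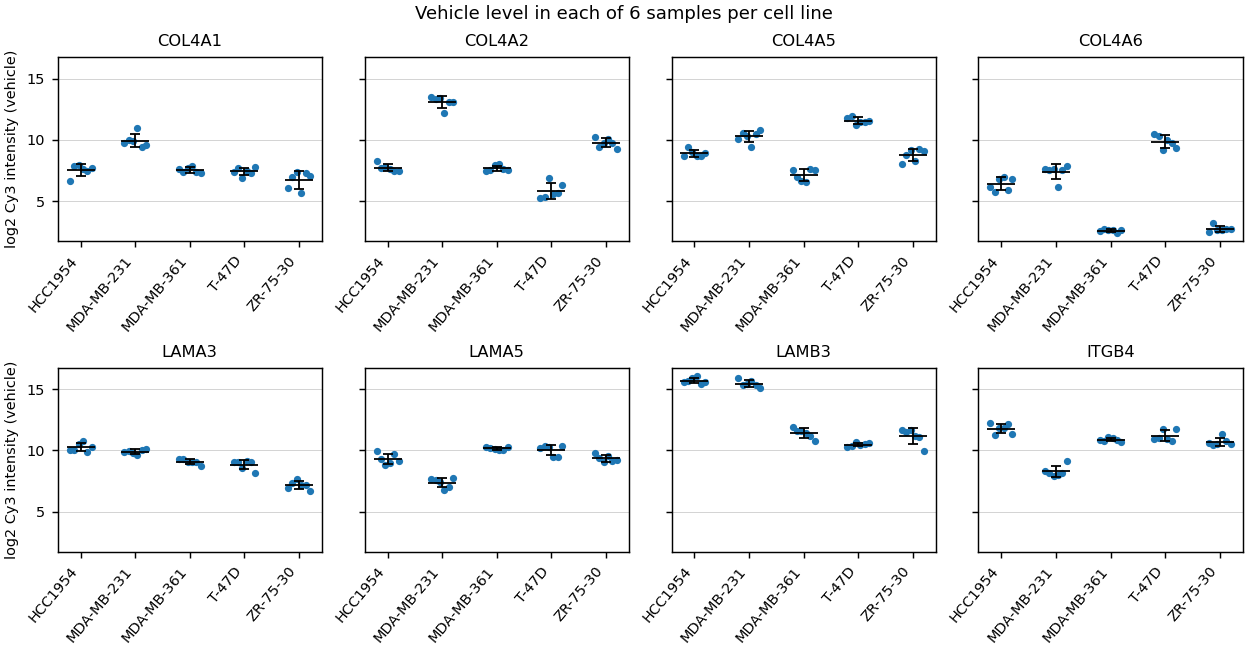
Vehicle level (log2 Cy3 intensity) of 8 genes in the 6 samples of each cell line (points), with mean and SD. COL4A2 lies highest in MDA-MB-231, COL4A5 and COL4A6 in T-47D, LAMB3 in HCC1954 and MDA-MB-231, and ITGB4 and LAMA5 lie lowest in MDA-MB-231.

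Type VI collagen forms beaded filaments from 3 different chains. COL6A1 had levels of 13.64 to 14.08 in MDA-MB-231 (median 13.72) and 11.58 to 12 in MDA-MB-361 (median 11.65), and its levels in ZR-75-30 were 7.22 to 8.06 (median 7.63). MDA-MB-231 was 19.8-fold above the mean of the other lines (4.31 ± 0.15, adjusted p = 3.69e-20). COL6A2 was higher in MDA-MB-231 as well (2.57 ± 0.23, adjusted p = 1.08e-10). COL6A3 differed there by 0.43 ± 0.49, which did not pass (adjusted p = 0.504), with 1 of the 6 spots left out, and within a line its samples spread by up to an SD of 1.4.

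The widest ranges among the collagens were those of COL13A1 and COL8A1 (9.95 and 8.54 on the log2 scale). COL13A1, a transmembrane collagen of adhesion sites, had levels of 12.42 to 13.36 in MDA-MB-231 (median 13.18) and 9.69 to 11.35 in HCC1954 (median 11.16). It was not well above background in MDA-MB-361 or T-47D, so MDA-MB-231 was at least 394-fold and at least 329-fold higher. COL8A1, a short-chain collagen of vascular and corneal matrix, had levels of 11.42 to 12.44 on the 5 samples of MDA-MB-231 with a usable spot (median 11.91). In HCC1954 it was on no sample well above background, which makes MDA-MB-231 at least 195-fold higher, and in the other 3 lines on 1 or 2 of 6.

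COL12A1, which decorates type I fibrils, had levels of 12.43 to 13.94 in MDA-MB-231 (median 13.09), 10.71 to 11.73 in HCC1954 (median 11.31) and 9.45 to 9.96 in T-47D (median 9.73). It was far lower in MDA-MB-361 (5.82 to 6.86, median 6.44) and ZR-75-30 (4.59 to 6.82, median 5.93), which overlapped. The step from the lower pair to the others exceeded the spread in every line, and the range of line means was 147-fold. The second COL12A1 probe had a range of 6.35 on the log2 scale but was highest in HCC1954, so the order of the top 2 lines depends on the probe. COL16A1, another fibril-associated chain, was highest in HCC1954 (10.32 ± 0.22, 2.05 ± 0.18 above the others) and lowest in ZR-75-30 (6.94 ± 0.47). COL9A3, a cartilage-type fibril-associated chain, was highest in T-47D (9.76 ± 0.2, 3.12 ± 0.2 above the others) and lowest in MDA-MB-231 (4.61 ± 0.67).

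COL17A1, the transmembrane collagen of hemidesmosomes, had levels of 9.08 to 9.73 in MDA-MB-361 (median 9.43) and about 1 log2 unit less in MDA-MB-231 (8.37 ± 0.67) and HCC1954 (8.22 ± 0.45), which overlapped. In T-47D it was on no sample well above background, so MDA-MB-361 was at least 26.9-fold higher. COL7A1, the anchoring fibril collagen beneath hemidesmosomes, was instead highest in MDA-MB-231 (9.34 ± 0.58, 2.51 ± 0.19 above the others, adjusted p = 1.37e-12). A second COL17A1 probe was well above background on 10 samples and highest in MDA-MB-231. COL15A1, a collagen next to basement membranes, had levels of 5.76 to 8.42 in HCC1954 (median 7.62). It was on no sample of MDA-MB-361 or ZR-75-30 well above background, so HCC1954 was at least 7.88-fold and at least 7.23-fold higher.

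COL27A1, a fibrillar collagen of cartilage, had levels of 13.04 to 13.65 in MDA-MB-361 (median 13.28) and 10.74 to 11.41 in MDA-MB-231 (median 11.28), 16-fold and 2.6-fold above the mean of their other lines. Its second probe, well above background on all 30 samples, did not differ at the threshold (adjusted p = 0.326, range 1.13). COL18A1, the basement membrane collagen from which endostatin is cut, was higher in MDA-MB-361 (14.95 ± 0.12) and MDA-MB-231 (14.81 ± 0.27) than in the other lines by its brightest probe, while the range of its second probe was 0.89, under 2-fold. Of 20 members with 2 or more probes above background on 6 or more arrays, 9 had probes that differed in the highest line, among them also COL20A1, ITGA2 and LAMA1.

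**Figure D3:**
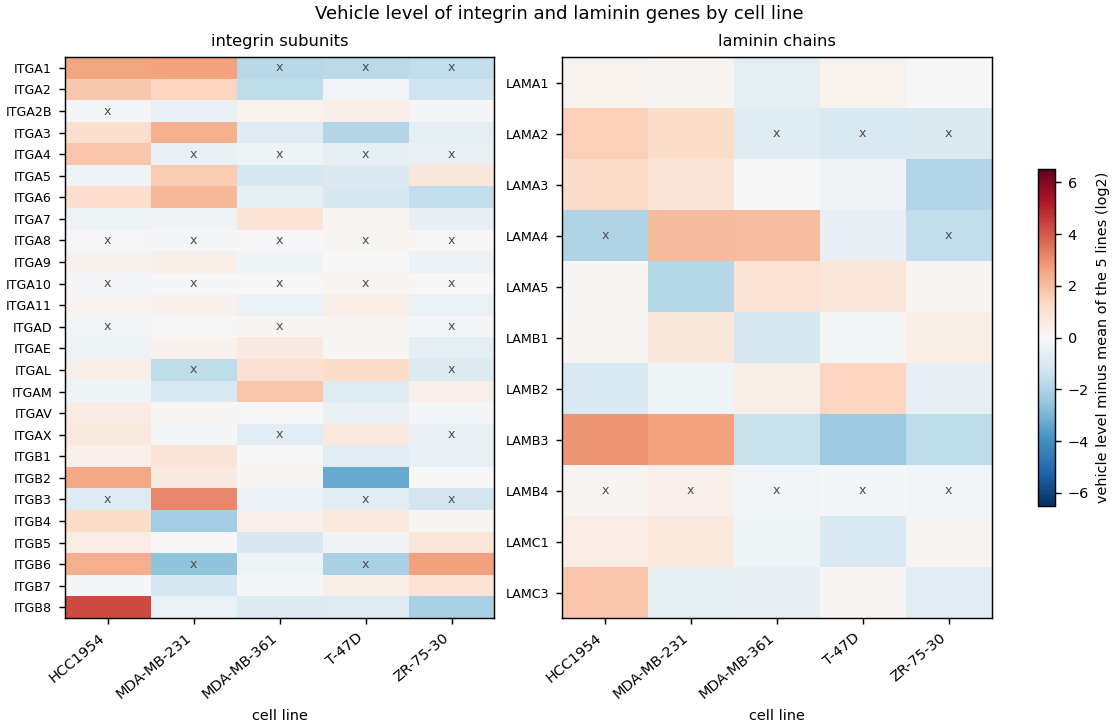
Heat map of vehicle levels of the integrin and laminin genes (rows) in the 5 cell lines (columns), each as the log2 level minus the mean of the 5 lines, with an x where no vehicle sample of the line was well above background. ITGB8 stands out in HCC1954, ITGB3 in MDA-MB-231, ITGB6 in HCC1954 and ZR-75-30, and LAMB3 in HCC1954 and MDA-MB-231.

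Among integrins, HCC1954 had 9 of 26 higher and 1 lower, and MDA-MB-231 7 higher and 4 lower. MDA-MB-361 had 3 higher and 6 lower, T-47D 1 and 7, and ZR-75-30 2 and 6. The median difference of the 26 integrins from the mean of the other lines was 0.44 on the log2 scale in HCC1954 and -0.49 in ZR-75-30, where all probes had medians of -0.06 and -0.03. ITGB1 and ITGAV, the subunits with the most partners, had ranges below the integrin median by their brightest probes. ITGB1, the beta subunit shared by most collagen and laminin receptors, was well above background on every sample, and its line means spanned 1.53 on the log2 scale, from 14.85 ± 0.3 in T-47D to 16.38 ± 0.35 in MDA-MB-231. ITGAV, the alpha subunit of receptors for fibronectin and vitronectin, spanned 1.02 by its brightest probe. Its second probe, well above background on 28 of 30 samples, spanned 2.22 (limma F test, adjusted p = 0.000835), and so was not below the integrin median.

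Of the alpha subunits that pair with ITGB1 to bind collagen, ITGA1 had levels of 6.37 to 7.5 in HCC1954 (median 6.88) and 6.46 to 7.33 in MDA-MB-231 (median 7.08). In MDA-MB-361, T-47D and ZR-75-30 it was on no sample well above background, and MDA-MB-231 was at least 5.82-fold, at least 4.89-fold and at least 5.34-fold higher than these. ITGA2, the other main collagen-binding subunit, was present in all lines, at 9.83 to 11.77 in HCC1954 (median 11.37), 10.28 to 11.31 in MDA-MB-231 (median 10.79) and 7.45 to 7.96 in MDA-MB-361 (median 7.85). HCC1954 was 4.56-fold and MDA-MB-231 3.36-fold above the mean of their other lines (adjusted p = 1.55e-11 and 1.18e-09). ITGA10 was not well above background on any vehicle sample and ITGA11 on 16 of 30, with no call.

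The laminin-binding subunits ITGA3 and ITGA6 had the same order at the top. ITGA3 had levels of 10.73 to 12.26 in MDA-MB-231 (median 12.03) and 9.48 to 11 in HCC1954 (median 10.73), and at most 9.55 in the other lines. ITGA6 had levels of 12.36 to 12.82 on 5 samples of MDA-MB-231 (median 12.44) and 10.67 to 11.91 in HCC1954 (median 11.6), and at most 9.88 elsewhere. MDA-MB-231 was 7.41-fold and 6.57-fold above the mean of the other lines (adjusted p = 6.96e-14 and 1.13e-16). ITGB4, the partner of ITGA6 in hemidesmosomes, was the exception, since MDA-MB-231 was lowest, at 7.95 to 9.11 (median 8.17), against 10.44 to 12.21 over all samples of the other lines. The ITGB4 difference of -2.85 ± 0.17 in MDA-MB-231 is 7.21-fold (adjusted p = 4.96e-15).

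The other beta subunits differed in their order of lines. ITGB8, which with ITGAV binds latent TGF-beta, had levels of 9.7 to 11.16 in HCC1954 (median 10.72), and at most 6.93 in any other line. HCC1954 was 39-fold above their mean (5.29 ± 0.33, adjusted p = 5.33e-14), which holds T-47D and ZR-75-30, well above background on 3 and 1 of 6 samples. ITGB6, the epithelial partner of ITGAV that also binds latent TGF-beta, had levels of 7.4 to 7.99 in ZR-75-30 (median 7.74) and 6.28 to 8.4 in HCC1954 (median 7.48), which overlapped. It was not well above background in MDA-MB-231 and T-47D, so ZR-75-30 was at least 10.4-fold and at least 8.21-fold higher. ITGB3, the vitronectin receptor subunit, had levels of 5.85 to 7.16 in MDA-MB-231 (median 6.71) and was on no sample of HCC1954, T-47D or ZR-75-30 well above background, for bounds of at least 5.35-fold, at least 3.96-fold and at least 4.33-fold. ITGB5, another partner of ITGAV, was well above background on all samples and spanned 1.83 on the log2 scale, highest in ZR-75-30 (13.24 ± 0.2) and lowest in MDA-MB-361 (11.41 ± 0.2).

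ITGA5, the fibronectin receptor subunit, was higher in MDA-MB-231 (8.24 ± 0.4, 2.08 ± 0.18 above the others, adjusted p = 3.2e-11). ITGA7, a laminin-binding subunit of muscle, was higher in MDA-MB-361 (9.04 ± 0.2, 1.11 ± 0.17 above the others, adjusted p = 2.27e-06). Leukocyte integrin subunits were measured too. ITGB2, the shared leukocyte beta subunit, had levels of 9.87 to 10.16 in HCC1954 (median 9.94), 3.13 ± 0.22 above the other lines (adjusted p = 7.11e-13), and was well above background on 2 of 6 samples in T-47D (4.2 ± 1.02). Its alpha partner ITGAL was on all 6 samples well above background in MDA-MB-361 alone (5.2 to 5.79). The highest line mean of ITGAL was that of T-47D (5.2 to 6.36), which overlapped. ITGA4, an alpha subunit of lymphocyte homing receptors, was well above background on 5 of 6 samples of HCC1954 and on none of the other lines. ITGB7, the beta partner of ITGA4 and ITGAE, was highest in ZR-75-30 (8.43 ± 0.41) and lowest in MDA-MB-231 (6.39 ± 0.73), and ITGAE spanned 1.19 on the log2 scale with no line called. ITGAX, another partner of ITGB2, passed between lines (range 1.43) with 3 of 30 samples well above background. PTPRC, which marks leukocytes, was on no vehicle sample well above background.

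Laminins were higher in MDA-MB-231 for 5 of 12 genes and lower for 1, in HCC1954 for 4 and 3, in MDA-MB-361 for 2 and 2, in T-47D for 1 and 4, and in ZR-75-30 for 1 and 4. Their median difference from the mean of the other lines was 0.88 on the log2 scale in MDA-MB-231, where all probes had -0.02. LAMA3 and LAMB3 are chains of a trimer that anchors epithelia at hemidesmosomes. LAMB3 had levels of 15.43 to 16.08 in HCC1954 (median 15.63) and 15.08 to 15.92 in MDA-MB-231 (median 15.4), while the other 3 lines lay between 9.97 and 11.88. HCC1954 and MDA-MB-231 overlapped, and they were 11.9-fold and 9.64-fold above the mean of their other lines (adjusted p = 1.11e-16 and 5.06e-16).

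LAMA3 had levels of 9.9 to 10.79 in HCC1954 (median 10.16) and 9.65 to 10.14 in MDA-MB-231 (median 9.91), which overlapped, and was lowest in ZR-75-30 (6.68 to 7.64, median 7.22). HCC1954 and MDA-MB-231 thus held the upper levels of both LAMA3 and LAMB3.

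LAMA5, the alpha chain found in most adult epithelial basement membranes, was instead lowest in MDA-MB-231, at 6.79 to 7.72 (median 7.5), and no sample of another line was below 8.84 (-2.34 ± 0.16, adjusted p = 1.23e-13). LAMA4, an alpha chain of vascular and mesenchymal basement membranes, had levels of 6.12 to 6.98 in MDA-MB-231 (median 6.45) and 6.14 to 6.66 in MDA-MB-361 (median 6.44), which overlapped. It was on no sample of HCC1954 or ZR-75-30 well above background, so MDA-MB-231 was at least 4.76-fold and at least 3.85-fold higher. LAMA2, the muscle-type alpha chain, was well above background on 5 of 6 samples of HCC1954 and 3 of MDA-MB-231 and on none elsewhere. LAMA1, the alpha chain of early embryonic laminin, had no call by its brightest probe, while another probe (hg18 chr18:6931976-6932035) was well above background on the 6 samples of MDA-MB-231 and no others, with a range of 4.18 and an adjusted p of 8.65e-25.

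LAMB1 and LAMC1, the chains found in most laminin trimers, had ranges below the laminin median. LAMB1 spanned 1.87 on the log2 scale, from 10.99 ± 0.22 in MDA-MB-361 to 12.85 ± 0.17 in MDA-MB-231, and LAMC1 1.69, from 9.03 ± 0.25 in T-47D to 10.72 ± 0.55 in MDA-MB-231. LAMB2, the beta chain that replaces LAMB1 in mature muscle, nerve and kidney membranes, was highest in T-47D (13.86 ± 0.24, 1.73 ± 0.12 above the others, adjusted p = 3.3e-13). LAMC3 was highest in HCC1954 (7.35 ± 0.22, 2.27 ± 0.23 above the others). LAMB4 was on no vehicle sample well above background. After normexp background correction the differences of dim or modestly changed members dropped under 2-fold, among them LAMA4 in MDA-MB-231 (0.77), LAMA3 in MDA-MB-231 (0.86), LAMA5 in MDA-MB-361 (0.95), ITGB1 in MDA-MB-231 (0.96, and 0.95 without the 12 h array in the main setting), COL5A1 in HCC1954 (0.87) and ITGA1 in MDA-MB-361 (-0.79).

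Genes that make, crosslink or bind these proteins were read from lists of 19, 14 and 25 genes. Of the collagen synthesis and crosslinking genes 17 of 19 differed between lines (all probes 63.8%), with 8 higher in MDA-MB-231 (13%) and 9 lower in MDA-MB-361 (12.8%). LOXL2, a lysyl oxidase that crosslinks collagen, had mean levels of 13.96 in MDA-MB-231, 12.25 in HCC1954 and 9.71 in ZR-75-30, and was not well above background in T-47D. Of the other matrix genes 10 of 14 differed, a share near the 63.8% of all probes, with 6 higher in MDA-MB-231 against 13% of all probes, and NID1 and NID2, which link laminin to type IV collagen, were on no vehicle sample well above background. Of the adhesion partners 23 of 25 were on the array and 21 differed, with 12 higher in MDA-MB-231, against the same 63.8% and 13%. CD44, a hyaluronan receptor, had mean levels of 15.38 in HCC1954 and 15.23 in MDA-MB-231, and at most 11.27 in the other lines.

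After BMP7, few members of the 3 families passed a test, and none passed over all lines. The known targets ID1, ID2, ID3 and SMAD6 rose from 30 min to the mean of 3 to 24 h by 1.05, 1.14, 0.92 and 0.57 on the log2 scale of BMP7 over vehicle (limma adjusted p = 0.049, 0.013, 0.0254 and 0.0426), while SMAD7, the fifth of the list, had 0.2 (adjusted p = 0.402). In that comparison no collagen, integrin or laminin was called, where 0.19% of all probes were called up and 0.38% down. At an unadjusted p under 0.05 it had 7 of 40 collagens, 3 of 26 integrins and 2 of 12 laminins, against 6869 of 41000 probes. Over the 5 line means no member was called either (8, 3 and 3 at an unadjusted p under 0.05, against 6324 of 41000 probes), where 0.00976% of all probes were up and 0% down. Between 12 and 24 h on the one hand and 30 min and 1 h on the other no member was called (7, 3 and 2, against 7105 of 41000 probes), where 0.00488% of all probes were up and 0% down. The median over-line change was 0.03 for collagens, -0.01 for integrins and -0.04 for laminins, and 0 for all probes.

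**Figure D4:**
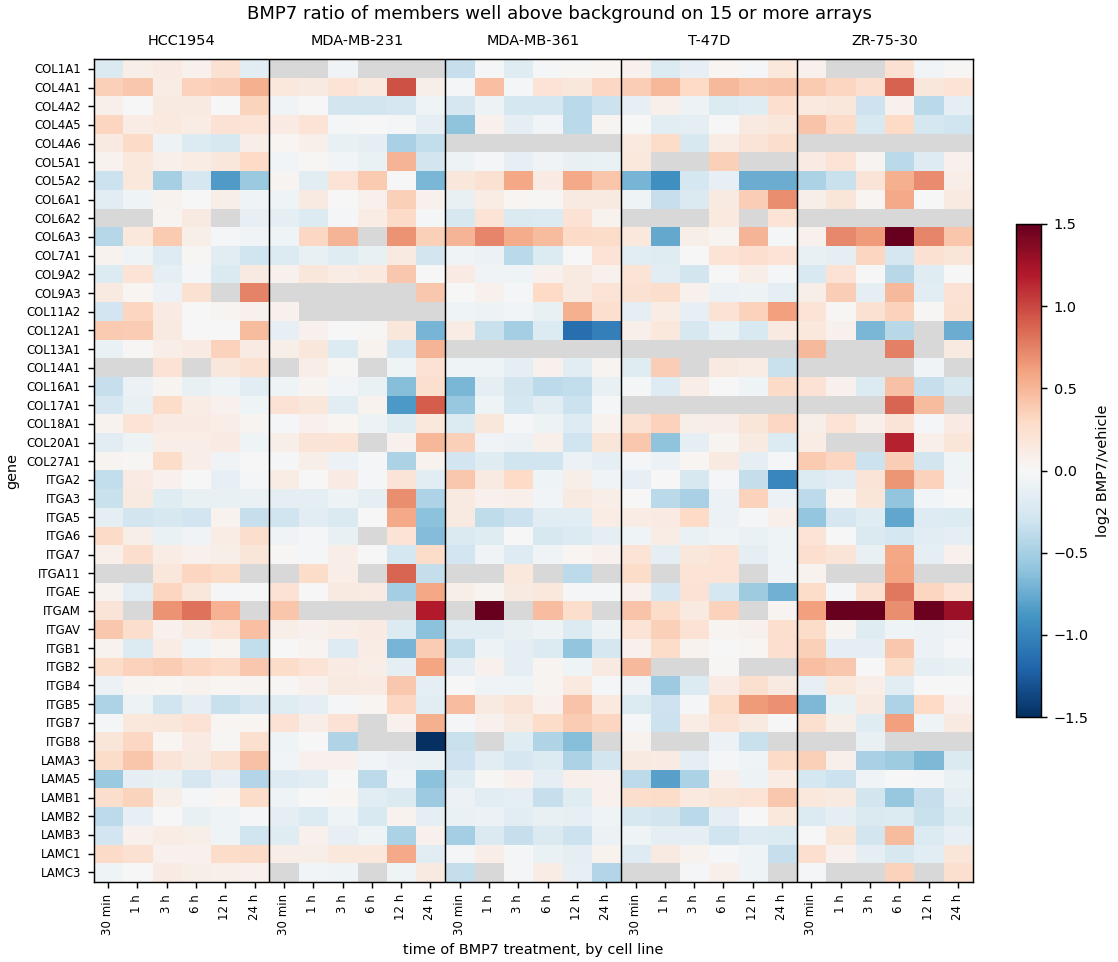
Heat map of log2 BMP7 over vehicle for 44 genes well above background in both channels on 15 or more arrays (rows), by cell line and time point (columns), grey where a channel was not well above background or the spot was left out. Most cells are near 0, and the strongest colours are ITGAM in ZR-75-30 and at 1 h in MDA-MB-361 (1.59), COL6A3 in ZR-75-30 at 6 h (1.63) and ITGB8 in MDA-MB-231 at 24 h (-1.59).

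Changes of 2-fold on spots well above background in both channels were rare. Of 1377 such spots of the 3 families, 8 were up (0.581%) and 4 down (0.29%), where 0.362% and 0.437% of all such spots of the array were. Without the ZR-75-30 array at 6 h, 6 of 1330 were up (0.451%) and 3 down (0.226%), against 0.216% and 0.31%. ITGAM gave 6 of the 8 upward changes, COL6A3 and COL20A1 the others (1.63 and 1.16, both in ZR-75-30 at 6 h). Downward were COL12A1 in MDA-MB-361 at 12 h and 24 h (-1.13 and -1.02), ITGB8 in MDA-MB-231 at 24 h (-1.59) and ITGB6 in ZR-75-30 at 6 h (-1.09). No laminin changed 2-fold.

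Within a line, the 6 time points were tested together against 0. HCC1954 had 5 of the 78 members up and 0 down, where 2.67% and 2.68% of all probes were. MDA-MB-231 had 0 up and 2 down, against 1.21% and 0.778%. MDA-MB-361 had 2 up and 8 down (10.3%), against 4.97% and 4.93%. T-47D had 3 up and 2 down, against 5.35% and 6.14%, and ZR-75-30 4 up and 3 down, against 4.76% and 5.07%. Without its 6 h array ZR-75-30 had 2 up and 1 down, and without its 12 h array MDA-MB-231 had 1 down. These shares include what a constant dye effect of a probe adds.

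COL4A1 had a mean ratio above 0 in every line. Its log2 ratios were 0.11 to 0.53 in HCC1954, 0.09 to 0.96 in MDA-MB-231, -0.02 to 0.45 in MDA-MB-361, 0.3 to 0.5 in T-47D and 0.17 to 0.89 in ZR-75-30, so that 28 of 30 arrays were above 0. The mean over the lines was 0.32 ± 0.04 (adjusted p = 0.0868, not called), and it was called within HCC1954 (0.35, but 0.31 and adjusted p = 0.0595 with the authors' log2 ratios), T-47D (0.42) and ZR-75-30 (0.37, but 0.27 and adjusted p = 0.0819 without the 6 h array). On the arrays of the first scan batch the ZR-75-30 call was lost as well (0.24, adjusted p = 0.201). From the first hour to 12 and 24 h COL4A1 moved by 0.06 ± 0.1 (adjusted p = 0.796), and an early BMP7 response and a constant dye effect cannot be told apart. COL4A2, its neighbour on the other strand, was below 0 at all 6 time points in MDA-MB-361 (-0.41 to -0.08, mean -0.26, adjusted p = 0.0133).

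**Figure D5:**
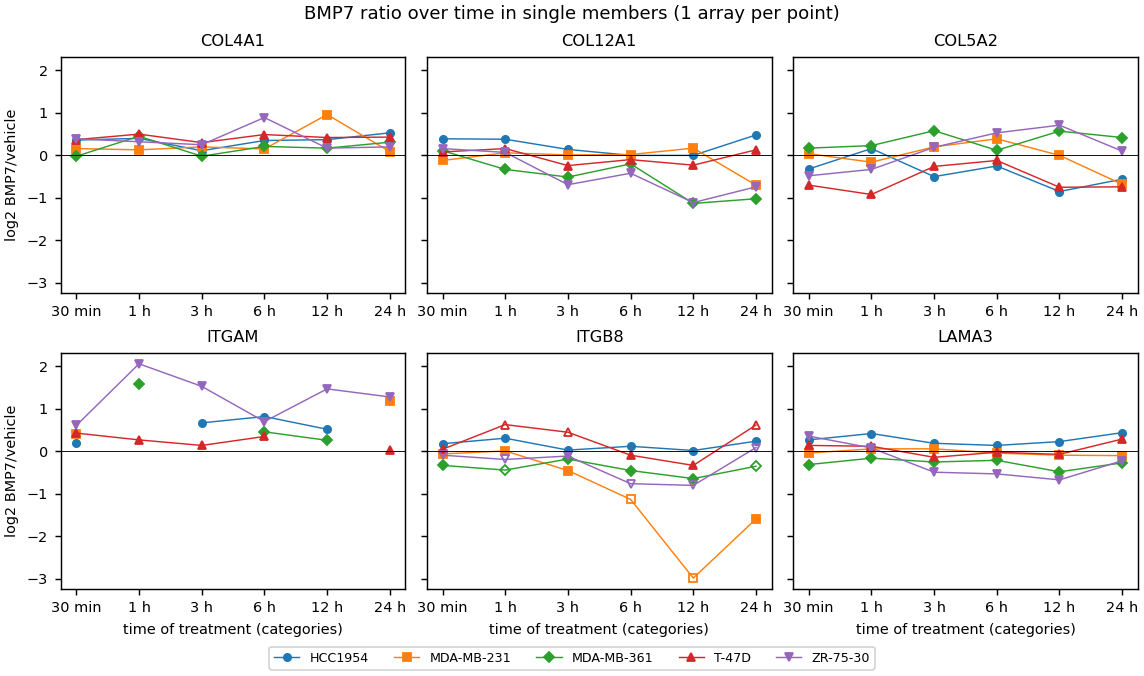
Log2 BMP7 over vehicle of COL4A1, COL12A1, COL5A2, ITGAM, ITGB8 and LAMA3 by time point in the 5 cell lines (lines and colours), with open points where a channel was not well above background. COL4A1 is above 0 on 28 of 30 arrays, COL12A1 is lowest at 12 h in MDA-MB-361 and ZR-75-30, and ITGB8 is lowest in MDA-MB-231 with open points at 6 h and 12 h.

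COL12A1 had its lowest ratios at 12 h and 24 h in 2 lines. In MDA-MB-361 its log2 ratios were 0.11 and -0.33 at 30 min and 1 h, then -0.51 and -0.2 at 3 h and 6 h, and lastly -1.13 and -1.02 at 12 h and 24 h. In ZR-75-30 they were 0.16, 0.07, -0.69, -0.42, -1.11 and -0.74, with the BMP7 channel not well above background at 12 h. HCC1954, MDA-MB-231 and T-47D, in which the vehicle level of COL12A1 was far higher, had ratios from -0.7 to 0.48. Within MDA-MB-361 the mean was -0.51 ± 0.14 (adjusted p = 0.026) and within ZR-75-30 -0.46 ± 0.14 (adjusted p = 0.0448). The first call was lost after normexp correction (-0.24, adjusted p = 0.0817) and the second under 6 alternatives, among them leaving out the MDA-MB-231 array at 6 h (adjusted p = 0.0511) or the ZR-75-30 array at 6 h (adjusted p = 0.121) and normexp correction (adjusted p = 0.153). Between the lines COL12A1 did not pass (adjusted p = 0.0533), nor did its change from the first hour to 12 and 24 h over all lines (-0.51 ± 0.15, adjusted p = 0.115).

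COL5A2 differed between the lines (adjusted p = 0.0157). Its ratios were below 0 at all 6 time points in T-47D (-0.92 to -0.12, mean -0.58, adjusted p = 0.00749) and above 0 at all 6 in MDA-MB-361 (0.12 to 0.58, mean 0.35, adjusted p = 0.112), without overlap. COL6A3 was up within MDA-MB-361 (0.28 to 0.73, mean 0.47, adjusted p = 0.0358) and within ZR-75-30 (0.07 to 1.63, mean 0.7, adjusted p = 0.00286), 6 of 6 time points above 0 in each. COL18A1 was up in T-47D by a small amount (0.21 ± 0.04, 6 of 6 time points, adjusted p = 0.00278, and 0.0592 with the authors' log2 ratios). COL16A1 was down in MDA-MB-361 (-0.33, 6 of 6 time points, adjusted p = 0.0263). With slide as a random block the MDA-MB-361 calls of COL6A3 and COL16A1 were lost (adjusted p = 0.0705 and 0.0519). COL21A1 in HCC1954 and COL8A2 in MDA-MB-361 also passed, at 0.68 and -0.85, but neither was well above background on any array of that line, and COL9A1 in T-47D (-0.51) and COL13A1 in ZR-75-30 (0.41) were so in both channels on 2 and 3 of 6 arrays.

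ITGAM, the alpha subunit of a leukocyte complement receptor, gave the largest ratio among spots well above background in both channels. In ZR-75-30 they were 0.61 and 2.06 at 30 min and 1 h, then 1.53 and 0.7 at 3 h and 6 h, and lastly 1.47 and 1.28 at 12 h and 24 h, with a mean of 1.28 ± 0.18 (adjusted p = 0.000441). The other lines had 14 measured ratios between 0.04 and 1.59, none below 0. The spot was marked as an outlier and left out on 10 of the 30 arrays, 4 of them in MDA-MB-231, and ITGAM has 1 probe on the array. Over the lines it was 0.73 ± 0.15 (adjusted p = 0.141), from the first hour to 12 and 24 h -0.09 ± 0.31 (adjusted p = 0.936), and the difference between lines did not pass (adjusted p = 0.132).

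ITGB8 fell in MDA-MB-231, where its log2 ratios were -0.06 and 0.01 at 30 min and 1 h, then -0.45 and -1.13 at 3 h and 6 h, and lastly -2.98 and -1.59 at 12 h and 24 h. The BMP7 channel was not well above background at 6 h and 12 h, so the sizes of these values are not measured. The vehicle level of ITGB8 in this line was 5.23 to 6.92, highest at 12 h and 24 h. The mean of -1.03 ± 0.23 passed (adjusted p = 0.0134), as did the difference between lines (adjusted p = 0.0455), but without the 12 h array it was -0.64 (adjusted p = 0.0563) and with only spots well above background in both channels -0.52 (adjusted p = 0.14). In HCC1954, the line with high ITGB8, the ratios were 0.02 to 0.31.

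Other integrin changes were small. ITGA1 was below 0 at all 6 time points in MDA-MB-231 (-0.46 to -0.09, mean -0.31, adjusted p = 0.00466), and ITGB2 (0.28 to 0.4, mean 0.33, adjusted p = 0.0132) and ITGAV (0.07 to 0.45, mean 0.25, adjusted p = 0.0332) above 0 at all 6 in HCC1954. ITGA5 was below 0 at all 6 in ZR-75-30 (-0.78 to -0.18, mean -0.36, adjusted p = 0.0215), with -0.28 and an adjusted p of 0.149 without the 6 h array. The ITGAV call was lost with the authors' log2 ratios (adjusted p = 0.112), on the arrays of the first scan batch (0.0934) and with a scan batch term (0.0516), and the ITGA5 call in both of the latter as well (0.386 and 0.0608). The ITGA1 call was lost with only spots well above background in both channels (mean still -0.31, adjusted p = 0.114). All 6 MDA-MB-231 arrays passed that filter. It took out the ratios of MDA-MB-361, T-47D and ZR-75-30, which share 1 spread with MDA-MB-231 in the fit. ITGAV also differed between lines (adjusted p = 0.0278). The ITGA1 test between lines passed too (adjusted p = 0.0317), but in MDA-MB-361, T-47D and ZR-75-30 all its ratios were listed at 0, with no array well above background.

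Several laminins had ratios below 0 in MDA-MB-361. LAMA3 (-0.48 to -0.16), LAMB3 (-0.51 to -0.09) and LAMA4 (-0.77 to -0.25) were below 0 at all 6 time points there, with means of -0.28, -0.28 and -0.45 (adjusted p = 0.035, 0.0197 and 0.00425). The median of the 12 laminins in this line was -0.13, while all probes had a median of 0. None of these means reached 2-fold, the values at 30 min and 1 h were already below 0, and with the authors' log2 ratios LAMA3 and LAMB3 missed the threshold (adjusted p = 0.0548 and 0.0509). With slide as a random block LAMA3 missed it as well (adjusted p = 0.0631). LAMA1 was called up in the same line (0.47) on a probe well above background in both channels on 1 of 6 arrays, and on that array alone, as with normexp correction, its value was -0.03.

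LAMA3 went the other way in HCC1954, with ratios of 0.14 to 0.44 at the 6 time points (mean 0.28, adjusted p = 0.0471, but 0.0537 without the MDA-MB-231 array at 6 h, 0.0807 with the authors' log2 ratios and 0.0671 with scan batch as a term), which did not overlap with MDA-MB-361. With slide as a random block the HCC1954 call was lost too (adjusted p = 0.071). The difference of LAMA3 between lines passed (adjusted p = 0.0139). LAMB1 was above 0 at all 6 time points in T-47D (0.15 to 0.4, mean 0.25, adjusted p = 0.0308, but 0.155 with normexp correction and 0.0835 with the authors' log2 ratios) and LAMB2 below 0 at all 6 in ZR-75-30 (-0.33 to -0.15, mean -0.22, adjusted p = 0.00799). LAMA4 and LAMB1 differed between lines as well (adjusted p = 0.0181 and 0.0157), though in HCC1954 LAMA4 was well above background on no array and its ratios were all listed at 0.

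Over the 3 families, 4 collagens (COL18A1, COL21A1, COL5A2 and COL8A2), 3 integrins (ITGA1, ITGAV and ITGB8) and 4 laminins differed between lines in their BMP7 ratio, where 11% of all probes did. This count of 11 fell to 0 when MDA-MB-361 was left out, and leaving out HCC1954 or T-47D in its place gave 3 or 5. The count was 7 with only spots well above background in both channels. For COL21A1, COL8A2, ITGA1 and LAMA4, 2 to 4 of the 5 lines had no array well above background in both channels, so these tests set measured lines against lines without a measured ratio. Of the synthesis, matrix and adhesion lists, 2 of 19 (P4HB and PLOD3), 2 of 14 (FBN1 and ECM1) and 1 of 23 genes (CD151) differed between lines. Within lines they had 2, 0 and 1 upward and 6, 4 and 5 downward calls over the 5 lines, for 19, 14 and 23 genes tested in each line. Of all probes 1.21% to 5.35% were up in a line and 0.778% to 6.14% down. None of the listed genes was called over the lines or at 12 and 24 h against the first hour.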

How the data were processed

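The 30 arrays are 1 hybridization for each of 5 cell lines and 6 time points, with groups taken from the sample labels. Per the file headers, the deposited intensities of both channels were background subtracted, detrended and dye normalized by Agilent Feature Extraction 9.5.1.1, and the deposited log10 ratios of Cy5 (BMP7) over Cy3 (vehicle) were made from them after linear and lowess normalization, a surrogate standing in where a signal did not exceed background. The authors' deposited matrix holds log2 ratios with a median of 0 on each array, and no per-sample column was left unused (0). Probe coordinates are those of the files (hg18).

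Without control spots and those marked as outliers, a probe's spots were averaged, vehicle intensities were put on the log2 scale and normalized between arrays with limma's Aquantile, and log10 ratios were changed to log2 and set to a median of 0. All probes were fitted with limma 3.58.1 in R 4.3.3 (with data.table, version 1.17.8) and adjusted by Benjamini-Hochberg over all probes, with a threshold of 0.05 and, for vehicle levels, of 2-fold. A line counts as well above background by the software's flag. The fits were tested on simulated data. The number of arrays limits the precision. Promoters and figures were read and drawn with Python 3.11.15, numpy 2.4.6 and matplotlib 3.10.9, and 82 of the 84 symbols were found in the RefSeq table.

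The members and lists were chosen with earlier results of these data known. The genes named are a fixed set, per family the 5 others with the widest range among those called, and every member called after BMP7 or, per family, up to 6 with the most 2-fold changes. COL10A1 and other members outside this rule were counted only, apart from ITGA10, ITGA11 and LAMB4, named after their values were seen. A member left out of the text and figures is not reported here, though the counts hold it. The alternatives were 75th percentile scaling, normexp with an offset of 50, filters on dim spots, the authors' matrix, outlier-marked spots kept, slide, scan batch and time point as terms, 1 scan batch, any probe of a gene, 3-fold, and leaving out ZR-75-30 at 6 h or each line. Leaving out MDA-MB-231 at 6 h or at 12 h was chosen after seeing the data.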

Additional observations from a re-analysis of the deposited data

Results flagged for a closer look

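Of 196 sets of 6 or 5 vehicle samples of a member in a line, 22 (11.2%) held a sample far from the others by Dixon's rule, where chance gives about 1 in 20. MDA-MB-231 at 6 h accounted for 5 of them, an array with 2434 outlier-marked probes, namely COL4A1 (10.99, against at most 9.98 in the other samples of the line), COL4A2 (12.17, against at least 13.09), COL4A6 (6.17, against at least 7.55), ITGA3 (10.73, against at least 11.7) and LAMC1 (11.78, against at most 10.8), all on the log2 scale. HCC1954 at 1 h was low for COL13A1 (9.69), ITGA2 (9.83) and ITGA3 (9.48), and at 30 min for COL4A1 (6.64), and at 24 h it was high for ITGB2 (10.16). MDA-MB-231 at 24 h was low for COL27A1 (10.74) and high for ITGB4 (9.11), and at 30 min high for ITGB4BP (15.1). ZR-75-30 at 30 min was high for COL7A1 (7.27) and ITGAE (11.78) and low for LAMC1 (9.59), at 6 h high for ITGB4 (11.35) and at 24 h low for LAMB3 (9.97). MDA-MB-361 was high for COL20A1 at 3 h (6.15), for COL6A1 at 30 min (12) and for LAMB2 at 24 h (13.01), and T-47D was low for LAMB1 at 3 h (11.43). The cause of these values was not tested.

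The BMP7 ratio differed between lines, by limma's F test over the line coefficients, for 11 members and ITGB4BP, most of which follow. The adjusted p was 0.0345 for COL18A1 (from -0.05 in MDA-MB-361 to 0.21 in T-47D), 0.0399 for COL21A1 (-0.22 in MDA-MB-361, 0.68 in HCC1954), 0.0157 for COL5A2 (-0.58 in T-47D, 0.35 in MDA-MB-361) and 0.0258 for COL8A2 (-0.85 in MDA-MB-361, 0.04 in ZR-75-30). It was 0.0317 for ITGA1 (-0.31 in MDA-MB-231, 0.03 in HCC1954), 0.0278 for ITGAV (-0.14 in MDA-MB-361, 0.25 in HCC1954), 0.0455 for ITGB8 (-1.03 in MDA-MB-231, 0.22 in T-47D) and 0.0206 for ITGB4BP, a ribosome assembly factor in spite of its name (-0.21 in T-47D, 0.15 in MDA-MB-361). It was 0.0139 for LAMA3 (-0.28 in MDA-MB-361, 0.28 in HCC1954), 0.0181 for LAMA4 (0.12 in T-47D, -0.45 in MDA-MB-361) and 0.0157 for LAMB1 (-0.17 in ZR-75-30, 0.25 in T-47D). COL21A1, COL8A2, ITGA1 and LAMA4 had no array well above background in both channels in 2 to 4 of the 5 lines.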

How the results depend on the processing

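The counts of collagens, integrins and laminins called between lines (31, 20 and 10) stayed within 1.5 times under every alternative run. Members called lower in HCC1954 numbered 12, but 19 with 75th percentile scaling. With normexp correction 7 were lower in HCC1954, 5 lower in MDA-MB-231, 12 lower in MDA-MB-361 and 13 lower in ZR-75-30, and 7 higher in MDA-MB-361, 5 higher in T-47D and 2 higher in ZR-75-30. For BMP7, normexp gave 1 member up over all lines, 1 up in MDA-MB-231, 8 up in ZR-75-30, 17 that differed between lines and 1 downward 2-fold change. The authors' log2 ratios gave 1 up over all lines, 3 up in HCC1954, 1 up in MDA-MB-231 and 6 down in T-47D. Spots above background in both channels left 0 down in MDA-MB-231 and 7 that differed between lines, and outlier-marked spots gave 1 up in MDA-MB-231. Slide as a random block gave 1 up in MDA-MB-361 and 7 between lines, scan batch as a term 2 up in MDA-MB-231, and the first scan batch alone 2 up in ZR-75-30 and 7 between lines. Without ZR-75-30 at 6 h, 1 was up at 3 to 24 h against 30 min, and 2 were up and 1 down in ZR-75-30, and without MDA-MB-231 at 12 h 1 was down in MDA-MB-231. Leaving out each line gave between 0 and 15 that differed between lines. Counting any probe of a gene gave 2 down in HCC1954. Counting all spots gave 29 upward and 27 downward 2-fold changes, and 3-fold gave 3 and 1. LAMA1 in MDA-MB-361 turned from 0.47 to -0.03 with normexp and with spots above background in both channels. Of single named genes, 1647 vehicle results kept their call and 76 lost it, and of the BMP7 results 288 kept it and 38 lost it. The cause of these changes was not tested. Each ratio already sets BMP7 against the vehicle sample of the same line and time. No paired analysis was possible because the labels give no replicate numbers that could pair samples beyond that. Where a line was not well above background, a difference from a mean that holds it rests on signals at background.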
